A study of Homo sapiens with 94 samples.

Results

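Aza, the name used in the labels for 5-aza-2'-deoxycytidine, was given to the HEK293 line called HEK293_MeBP_TET_WT, and total RNA of 3 treated libraries was set against that of 3 untreated libraries. All rows of the deposited sense-strand table of that comparison were taken, and its 6 libraries are 6 of the 94 samples of the series. The Aza group received 880 nM for 48 h, and the untreated group received nothing that the labels name. The host of all 6 libraries is HEK293 T-Rex Flp-in, a human embryonic kidney line with a tetracycline repressor and a site for integrating a construct, whose construct is switched on by doxycycline (Dox), which neither group received. The labels disagree about that construct: the titles say TET_WT, while the genotype tag of all 6 libraries says TETMut-CD-GFP, the mutant form of a TET catalytic domain fused to GFP. The letters MeBP are not spelled out in the labels.

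Values from 3 other comparisons with Aza at 880 nM for 48 h, each with 3 treated and 3 untreated libraries of its own, are used beside it. They come from HEK293_MeBP_TKO_G16 and HEK293_MeBP_TKO_G37, which were part of the same experiment and carry the tags MeBP_TKO and TET-CD-GFP, and from HEK293_TET_WT, a separate experiment tagged TET-CD-GFP. The knocked-out genes are not named in the labels, and the labels do not say whether G16 and G37 are single clones. Dox at 1 µg/mL for 48 h in HEK293_MeBP_TET_WT, also 3 libraries, was compared with the same 3 untreated libraries. Of the 6 libraries of that Dox comparison, 1 carries the MeBP_TKO tag, which goes against its title. HEK293_MeBP_TET_WT is called the parental line from here on, for its title without TKO.

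As background, 5-aza-2'-deoxycytidine is a cytidine analogue that cells build into DNA during replication, where it traps DNA methyltransferases, so that methylation of CpG dinucleotides is lost as cells divide. Genes known for reactivation after such treatment include germline and cancer-testis genes, which are methylated at their promoters in somatic cells. The trapped enzyme is also known to act as a DNA lesion, and p53 target genes respond to DNA damage in many cell types. HEK293 cells carry adenoviral early-region genes, whose products bind p53 and the RB protein family.

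Promoter windows of 5 genes on which the account turns are printed first, since CpG dinucleotides, in capitals, are where methylation is lost. They run from 250 bases before to 50 bases after the annotated start, 5' to 3' on the gene's strand, and come from RefSeq on GRCh38.p14, not from the hg19 build of the study. GPR146, STAT6, HAND1 and GTSF1 were higher with Aza and GABBR2 was lower. The median window of the 35116 in the RefSeq table holds 14 CpG, with 4.00 and 28.0 as the bounds of its middle range. Methylation of these windows was not analysed here.
GPR146 (chr7:1044296-1044595, plus strand, 31 CpG): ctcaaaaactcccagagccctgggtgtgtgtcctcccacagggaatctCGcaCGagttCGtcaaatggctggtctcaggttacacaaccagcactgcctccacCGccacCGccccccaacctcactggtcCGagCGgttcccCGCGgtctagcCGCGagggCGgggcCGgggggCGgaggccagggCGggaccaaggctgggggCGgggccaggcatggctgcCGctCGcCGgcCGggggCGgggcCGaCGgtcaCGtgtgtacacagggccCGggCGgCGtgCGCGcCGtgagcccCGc
STAT6 (chr12:57110240-57110539, minus strand, 12 CpG): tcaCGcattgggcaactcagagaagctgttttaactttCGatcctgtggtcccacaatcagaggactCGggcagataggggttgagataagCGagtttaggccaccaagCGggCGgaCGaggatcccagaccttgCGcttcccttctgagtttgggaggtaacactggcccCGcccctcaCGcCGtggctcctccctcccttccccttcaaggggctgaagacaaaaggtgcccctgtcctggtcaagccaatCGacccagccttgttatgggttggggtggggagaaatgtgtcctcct
HAND1 (chr5:154478178-154478477, minus strand, 21 CpG): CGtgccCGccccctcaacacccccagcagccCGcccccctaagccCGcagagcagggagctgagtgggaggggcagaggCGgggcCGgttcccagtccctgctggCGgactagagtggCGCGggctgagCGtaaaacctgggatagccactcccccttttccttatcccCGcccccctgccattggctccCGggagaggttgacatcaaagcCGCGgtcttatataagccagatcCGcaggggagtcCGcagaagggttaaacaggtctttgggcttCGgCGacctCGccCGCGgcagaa
GTSF1 (chr12:54473553-54473852, minus strand, 10 CpG): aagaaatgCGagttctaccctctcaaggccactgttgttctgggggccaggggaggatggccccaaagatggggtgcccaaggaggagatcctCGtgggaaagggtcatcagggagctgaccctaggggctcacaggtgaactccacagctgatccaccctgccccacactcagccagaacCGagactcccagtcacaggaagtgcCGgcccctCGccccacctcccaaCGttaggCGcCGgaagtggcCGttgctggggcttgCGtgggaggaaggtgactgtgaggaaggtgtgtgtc
GABBR2 (chr9:98708886-98709185, minus strand, 50 CpG): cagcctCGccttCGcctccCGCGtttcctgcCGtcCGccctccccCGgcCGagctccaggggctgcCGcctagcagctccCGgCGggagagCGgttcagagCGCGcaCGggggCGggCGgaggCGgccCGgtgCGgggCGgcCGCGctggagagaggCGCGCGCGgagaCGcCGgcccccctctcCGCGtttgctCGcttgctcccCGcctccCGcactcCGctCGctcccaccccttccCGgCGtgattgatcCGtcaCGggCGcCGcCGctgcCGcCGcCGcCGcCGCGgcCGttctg
Of these windows, those of GPR146 and GABBR2 lie above that range, and those of STAT6 and GTSF1 lie below the median. A window rich in CpG was thus present for a gene that was higher and for one that was lower.

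Aza changed many genes of the parental line by small amounts and fewer by large ones, and the large changes were nearly all rises. Of 18850 rows, 70 repeated a symbol and were dropped, and 16384 genes were tested. Of these, 3720, or 22.7%, were called in the authors' deposited table at an adjusted p below 0.05, with 1701 higher (10.4% of genes tested) and 2019 lower (12.3%). Higher genes made up 45.7% of calls, and 60.3% once fold changes were centred, so which direction held more genes depended on that choice. Centring took away -0.0254, the median unshrunken log2 fold change of genes with a mean normalised count of at least 100. The sizes were unequal: among deposited log2 fold changes of called genes, 184 were above 1 and 3 were below -1, and 433 were above 0.5 against 40 below -0.5. The median deposited log2 fold change was 0.26 among higher and -0.16 among lower genes, and -0.0021 over all genes tested.

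Fold changes throughout are log2 of Aza over untreated with standard errors, as the authors deposited them, and they have been shrunken toward 0, which understates genes with few reads. The level of a gene is the mean normalised count over all libraries of the experiment, Aza, Dox and knockout libraries included, and is given once for the gene, with no value per library or group. Sequencing depth is thus not given in the tables, and the median level of 1324 among tested genes stands in its place. Nothing in the labels says whether libraries came from separate cultures, so p-values measure the spread between these libraries. In a bulk sample, RNA from a few cells with a large change and RNA from many cells with a small one cannot be told apart.

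**Figure D1:**
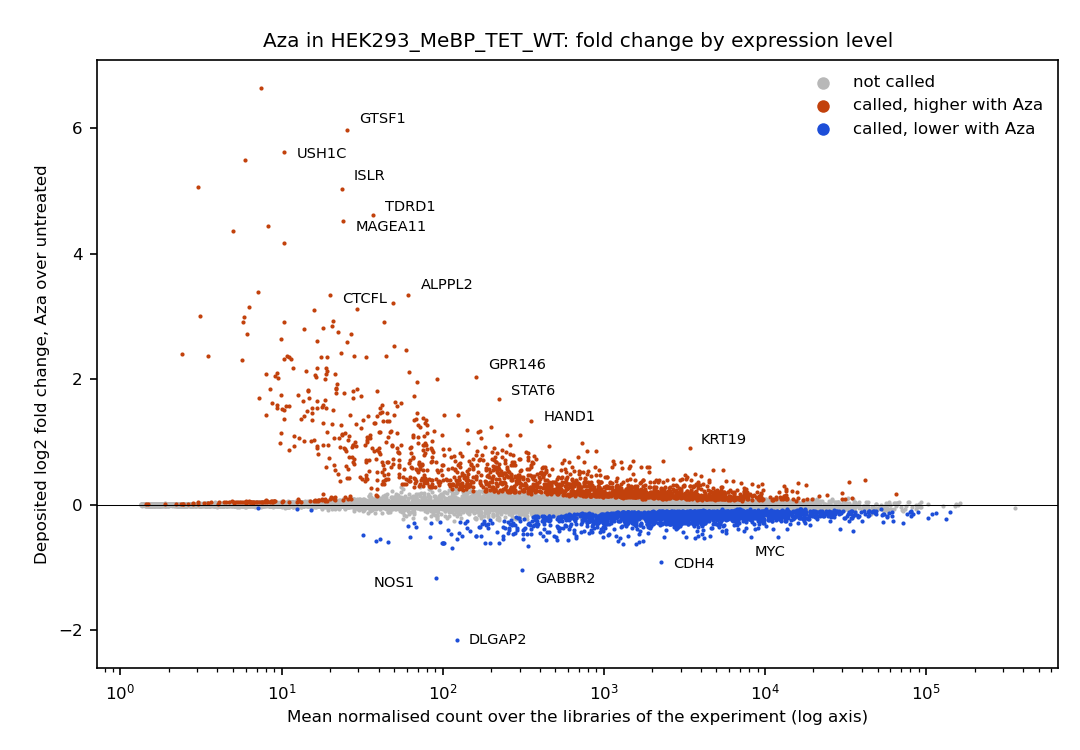
Deposited log2 fold change of Aza over untreated libraries (3 against 3) in the parental line against the mean normalised count (log axis), 1 point per tested gene, called genes in orange (higher) and blue (lower). Changes above 1 number 184 and lie mostly under a level of 100, while those below -1 number 3.

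The shares called in each direction went with level. Among 1998 genes with a level of 10 to under 100, 346 (17.3%) were higher and 16 (0.801%) lower in the authors' deposited table. Among 3553 genes of 100 to under 1000, 587 (16.5%) were higher and 261 (7.35%) lower. At 1000 and over, 678 of 9043 (7.50%) were higher and 1741 (19.3%) lower. Called falls had a median log2 fold change of -0.50 at 10 to under 100 and -0.16 at 1000 and over. Called rises had 0.89 and 0.17. Smaller changes were thus called at higher levels, which limits any comparison of shares between levels. Of the 184 rises above 1, 27 lay under a level of 10, 145 at 10 to under 100, and 12 at 100 to under 1000. The level includes the Aza libraries themselves, and a gene near 0 in untreated cells can reach a class only through its rise, so these shares are a description.

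The methylation genes themselves moved little. DNMT1, the maintenance methyltransferase that Aza traps, had a level of 14117 and a log2 fold change of -0.06 ± 0.04 (adjusted p = 0.26) in the authors' deposited table. DNMT3B, which sets new methylation, rose by 0.10 ± 0.04 (adjusted p = 0.042) there, while its relative DNMT3A stood at -0.07 ± 0.07 (adjusted p = 0.37). The dioxygenase genes, whose enzymes oxidise methylcytosine, had -0.12 ± 0.07 for TET1, 0.04 ± 0.06 for TET2 and -0.02 ± 0.06 for TET3 in the authors' deposited table, none of them called. For TET1 the level of 11917 includes Dox libraries, in which the authors' deposited table gives a log2 fold change of 2.52 over untreated, without telling construct from endogenous transcripts. The methyl-CpG-binding domain family genes MBD1 (0.07 ± 0.05), MBD2 (-0.04 ± 0.05), MBD3 (-0.07 ± 0.04) and MBD4 (0.07 ± 0.05), and also ZBTB33 (-0.02 ± 0.04), were not called in the authors' deposited table.

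Of the wider list of 21 tested genes of cytosine methylation and repair, 5 rose (23.8% beside 10.4% of all genes) and 0 fell (beside 12.3%). Beside DNMT3B they were IDH2, a mitochondrial enzyme that makes the cofactor of TET enzymes (0.41 ± 0.09), APOBEC3B, a cytidine deaminase (0.68 ± 0.21), SMUG1, a uracil-DNA glycosylase (0.11 ± 0.04), and EHMT2, a histone H3 lysine methyltransferase (0.10 ± 0.04), in the authors' deposited table. Of 25 methyl-binding and associated proteins, 0 rose and 4 fell, or 16% beside 12.3% of all genes. These were parts of histone deacetylase complexes, namely MTA1 (-0.19 ± 0.05), GATAD2A (-0.17 ± 0.05), RBBP4 (-0.08 ± 0.03) and HDAC2 (-0.08 ± 0.03) in the authors' deposited table, of which RBBP4 and HDAC2 were no longer called after centring (adjusted p = 0.15 and 0.16).

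Among genes with a level of at least 100, the 12 largest rises ran from 1.06 to 2.04 on the deposited log2 scale. GPR146, an orphan G protein-coupled receptor gene, had the largest, at 2.04 ± 0.18 (level 160, adjusted p = 1.3e-28) in the authors' deposited table. STAT6, the transcription factor of interleukin signalling through the interleukin-4 receptor, rose by 1.69 ± 0.16 (level 223, adjusted p = 8.6e-23) there. HAND1, a basic helix-loop-helix factor of heart and placenta development, rose by 1.34 ± 0.13 (level 355, adjusted p = 2.3e-22) in the authors' deposited table.

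The remaining 9 of the 12 ranged from 1.06 to 1.44. CRIP2, a LIM domain protein gene, rose by 1.44 ± 0.18, and MXRA8, a surface protein gene known as an entry receptor for alphaviruses, by 1.44 ± 0.27 in the authors' deposited table. Next came TGM2, tissue transglutaminase (1.24 ± 0.14), PPL, the cornified envelope protein periplakin (1.19 ± 0.16), and LGALS1, the lectin galectin-1 (1.16 ± 0.13), in the authors' deposited table. The other four were HSD3B7 of bile acid synthesis (1.18 ± 0.15), TP53I3, a p53 target (1.11 ± 0.12), RASSF4 of the RAS-association family (1.11 ± 0.13) and the water and glycerol channel AQP3 (1.06 ± 0.15) in the authors' deposited table. Adjusted p-values of these 9 ran up to that of MXRA8, 1.8e-07.

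The 12 largest falls at that level ran from -2.15 to -0.60. DLGAP2, a postsynaptic scaffold gene, fell by 2.15 (SE 0.24, level 122, adjusted p = 1.6e-17) on the log2 scale in the authors' deposited table. GABBR2, a subunit of the metabotropic GABA receptor, fell by 1.04 (SE 0.11, level 312, adjusted p = 1.6e-18) and CDH4, retinal cadherin, by 0.91 (SE 0.25, level 2269, adjusted p = 2.0e-04) there.

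The falls from -0.69 to -0.60 included SLC1A2, a glutamate transporter (-0.69 ± 0.16), CPLX1, a regulator of synaptic vesicle fusion (-0.60 ± 0.13), and the channel genes HCN4 (-0.60 ± 0.20) and KCND3 (-0.60 ± 0.15) in the authors' deposited table. Others were PLA2G4A, cytosolic phospholipase A2 (-0.66 ± 0.10), BMP6, a secreted growth factor (-0.62 ± 0.08), BTBD11 (-0.62 ± 0.10), HECW1, a ubiquitin ligase (-0.61 ± 0.16), and RPRML (-0.60 ± 0.30). RPRML had the weakest adjusted p of the 12, 0.011.

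At levels of 10 to under 100 the 8 largest rises ran from 3.34 to 5.98. A gene near 0 in untreated cells can enter this class only through its rise, so no theme is read from which genes these are. GTSF1, known in mouse as a factor of piRNA-guided transposon silencing, rose by 5.98 ± 1.00 (level 25.5, adjusted p = 2.4e-07), and TDRD1, a Tudor protein of the same pathway, by 4.62 ± 0.67 (level 36.7) in the authors' deposited table. MAGEA11, a cancer-testis gene of the MAGE family, rose by 4.53 ± 0.65 and CTCFL, the testis paralogue of the insulator protein CTCF, by 3.35 ± 0.50 there. USH1C, the scaffold protein harmonin (5.63 ± 2.05), ISLR (5.04 ± 0.72), CD93, an endothelial and myeloid surface receptor (4.17 ± 1.02), and ALPPL2, a placental-type alkaline phosphatase (3.34 ± 0.40), completed them in the authors' deposited table. Standard errors as large as 2.05 mark how loosely the size of such changes is fixed at these levels.

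The 8 largest falls at those levels were smaller than all 8 rises. NOS1, neuronal nitric oxide synthase, fell by 1.17 (SE 0.34, level 91.1, adjusted p = 4.4e-04) in the authors' deposited table. The others stood between -0.61 and -0.48: FAM78B (-0.61 ± 0.17), TMEM171 (-0.60 ± 0.18), OVCH1 (-0.59 ± 0.35), the potassium channel KCNK9 (-0.55 ± 0.41), RGS6 (-0.51 ± 0.30), FOXO6 (-0.51 ± 0.22) and the metalloprotease MMP25 (-0.48 ± 0.40), per the authors' deposited table. Adjusted p-values of these 7 reached 0.029 for MMP25.

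The 25 gene lists were counted against the shares of all tested genes, 10.4% higher and 12.3% lower. For each the members called in the authors' deposited table are described by their number and named examples. Medians, where given, are of deposited log2 fold changes over all tested members, called or not. They were 0.05 for epithelial and for HOX genes and 0.03 for smooth muscle and mesenchymal genes. Blood and immune genes had 0.02, germline genes 0.01 and neuronal genes -0.01. No test of a list as a whole was made. Where a list has untested members, one near 0 in untreated cells could reach the test only through its rise. The shares of such lists are a description.

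**Figure D2:**
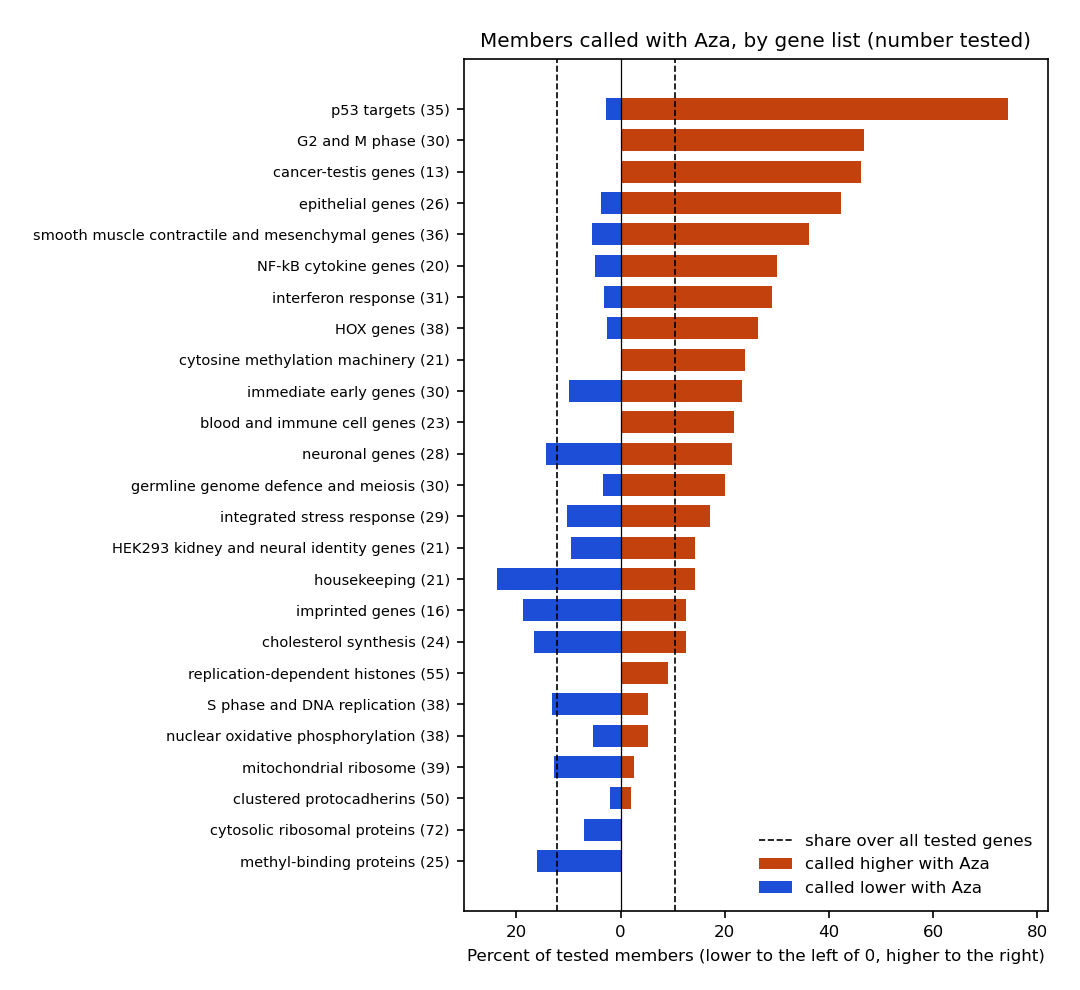
Percent of tested members of each gene list called higher (orange, right of 0) and lower (blue, left of 0) with Aza in the parental line, number tested in brackets, with the shares over all 16384 tested genes as dashed lines (10.4% and 12.3%). The list of p53 targets has the highest share of rises, 26 of 35.

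Genes that p53 is known to switch on were higher in 26 of 35 (74.3%) and lower in 1, with a median log2 fold change of 0.30 beside -0.0021 over all genes in the authors' deposited table. Cell cycle arrest was represented by CDKN1A, the CDK inhibitor p21 (0.70 ± 0.07, level 2340, adjusted p = 3.8e-23), and BTG2 (0.59 ± 0.07). Death receptors and apoptosis genes included TNFRSF10B (0.33 ± 0.04), FAS (0.32 ± 0.07), EDA2R (0.94 ± 0.13), BAX (0.40 ± 0.06) and TP53INP1 (0.86 ± 0.10) in the authors' deposited table. Negative regulators of p53 rose as well, MDM2 by 0.37 ± 0.05 at a level of 33054 and PPM1D by 0.32 ± 0.05 in the authors' deposited table. SPATA18, of mitochondrial quality control, rose by 0.68 ± 0.07 and FDXR, a mitochondrial reductase, by 0.68 ± 0.09 there.

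Not all p53 targets took part. PMAIP1, the apoptosis gene NOXA, fell (-0.15 ± 0.06, adjusted p = 0.03) in the authors' deposited table. BBC3, the apoptosis gene PUMA (0.10 ± 0.09), GDF15, a stress cytokine (0.02 ± 0.09), CCNG1 (0.11 ± 0.06) and PLK2 (0.14 ± 0.08) were not called there. The same list had 27 higher and 0 lower of 35 in HEK293_TET_WT, 29 and 0 in G16 and 25 and 0 in G37, in the authors' deposited tables of those lines.

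Of 30 genes of G2 and M phase, 14 (46.7%) were higher and 0 lower, with a median of 0.10 in the authors' deposited table. KIF2C, a microtubule depolymerase (0.33 ± 0.04, adjusted p = 2.1e-17), HMMR (0.26 ± 0.04), the kinesin KIF20A (0.24 ± 0.04), NUSAP1 (0.20 ± 0.04) and TOP2A, a topoisomerase (0.18 ± 0.03), led them. CCNB1, the mitotic cyclin (0.02 ± 0.04), and CDC20, an activator of the anaphase-promoting complex (0.05 ± 0.03), were not called in the authors' deposited table. The same list had 2 higher and 0 lower of 30 in HEK293_TET_WT, 12 and 2 in G16 and 18 and 0 in G37, and no single member passed the test of the difference between the parental line and any of these lines.

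Of 38 genes of S phase and DNA replication, 2 rose and 5 fell (13.2% beside 12.3%), with a median of -0.01 in the authors' deposited table. MCM6, a subunit of the replicative helicase (-0.22 ± 0.04), GINS1, a helicase accessory (-0.19 ± 0.04), POLA1, the catalytic subunit of DNA polymerase alpha (-0.17 ± 0.06), POLE2 (-0.13 ± 0.05) and UNG, a uracil-DNA glycosylase (-0.12 ± 0.04), were the falls. TK1, thymidine kinase (0.19 ± 0.04), and CDC6, a licensing factor (0.11 ± 0.04), were the rises in the authors' deposited table. Of 55 replication-dependent histone genes, 5 rose and 0 fell, with HIST1H2BG (0.59 ± 0.09) and HIST1H4I (1.17 ± 0.27) the largest. Histone genes are near-identical copies, so reads may be split among them.

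Germline and cancer-testis genes responded one by one. Of 36 genes of germline genome defence and meiosis in the table, 30 were tested, of which 6 rose and 1 fell. Members near 0 in untreated cells could reach the test only through a rise, so nothing is read from these counts. The rises were GTSF1, TDRD1 and CTCFL, given above, with TDRD12 (0.48 ± 0.09), the PIWI gene PIWIL2 (0.85 ± 0.27) and the helicase gene MOV10L1 (0.07 ± 0.13, level 16.3) in the authors' deposited table. TEX15, also a gene of male germ cells, fell (-0.21 ± 0.05, level 6863) there. Meiotic genes such as SYCP2 (0.01 ± 0.08), SYCP3 (0.01 ± 0.10), DAZL (0.01 ± 0.10) and DDX4 (0.00 ± 0.10) were not called in the authors' deposited table, the last 3 of them at levels of 3.88 to 5.68.

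Of 37 cancer-testis genes in the table, only 13 had an adjusted p, and 6 of those were higher and 0 lower. A member near 0 in untreated cells could reach the test only through its rise, so nothing is read from that share. MAGEA11, given above, was joined by MAGEC2 (2.14 ± 0.51, level 19.1), TKTL1 (0.94 ± 0.28, level 48.5) and PRAME, a repressor of retinoic acid signalling (0.36 ± 0.08, level 1929), in the authors' deposited table. MAGEB6 and MAGEA1 were called too, at levels of 5.98 and 2.37, with shrunken log2 fold changes of 0.06 ± 0.13 and 0.02 ± 0.10. The untested ones, such as MAGEA6 (level 0.768), CTAG2 (0.852) and GAGE1 (0.841), had levels too low for an adjusted p, and members of these families share sequence, so their counts are uncertain.

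Markers of other tissues were higher more often than lower, though neuronal genes only by 6 to 4. Several named markers have low levels, such as SPARC (44.4) and PDGFRB (28.0). Among all genes at 10 to under 100, 17.3% were higher and 0.801% lower. A member near 0 in untreated cells can also reach the test only through its rise, so these counts are a description. Of 36 smooth muscle and mesenchymal genes, 13 (36.1%) rose and 2 fell. Contractile genes among them were ACTA2, smooth muscle actin (0.95 ± 0.16), the calponins CNN1 (0.86 ± 0.31) and CNN2 (0.49 ± 0.06), TPM2, a tropomyosin (0.76 ± 0.13), and DES, desmin (1.16 ± 0.48), in the authors' deposited table. Matrix and pericyte genes included SPARC (2.38 ± 0.35), COL1A1 (0.54 ± 0.14), COL5A1 (0.39 ± 0.05), the receptor PDGFRB (2.38 ± 0.36) and the proteoglycan CSPG4 (0.98 ± 0.14) there. The transcription factor SNAI1 rose by 0.89 ± 0.17, while ZEB1 fell (-0.16 ± 0.07), as did CALD1 (-0.12 ± 0.04) in the authors' deposited table.

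Epithelial genes moved the same way, with 11 of 26 (42.3%) higher and 1 lower. KRT19, a keratin of simple epithelia, rose by 0.90 ± 0.07 at a level of 3451 and had the smallest adjusted p of the named genes, 2.3e-35, in the authors' deposited table. KRT8 (0.55 ± 0.08) and KRT18 (0.24 ± 0.06), also keratins of simple epithelia, the desmosomal plakophilin PKP3 (2.93 ± 0.59) and the claudin CLDN7 (0.96 ± 0.23) were higher there. So were the protease ST14 (1.14 ± 0.39) and its inhibitors SPINT1 (0.59 ± 0.18) and SPINT2 (0.38 ± 0.09). OCLN, a tight junction protein, was the 1 lower (-0.10 ± 0.04) in the authors' deposited table, and was no longer called after centring, which left 0 lower.

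Neuronal genes went both ways, 6 higher and 4 lower of 28. TUBB3, a neuronal tubulin (0.43 ± 0.07), MAP2, which binds microtubules (0.46 ± 0.11), ENO2 (0.32 ± 0.06), the vesicle protein SYT1 (1.02 ± 0.23), L1CAM (0.45 ± 0.22) and the neurofilament gene INA (0.19 ± 0.08) rose in the authors' deposited table. Those that fell included the receptor subunits GABBR2, given above, and GABRA5 (-0.46 ± 0.14), and also GAD1 (-0.17 ± 0.09), which makes GABA, in the authors' deposited table. The receptor subunit GABBR1 was not called (-0.05 ± 0.09).

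Of 23 blood and immune genes, 5 rose and 0 fell, among them CORO1A, a leukocyte actin regulator (0.84 ± 0.15, level 202), and CD74, the invariant chain of class II (2.42 ± 0.47, level 23.5), in the authors' deposited table. HLA-DRB1 (0.32 ± 0.09), which has close paralogues, LAPTM5 (1.49 ± 0.54) and CD79B (0.04 ± 0.11, level 6.77) were the others. Of 21 genes known for HEK293 identity of kidney and neural kind, 3 rose and 2 fell. The line held such transcripts, VIM at a level of 33360 and LIN28B at 14406 among them, while PAX8 (2.06), SOX11 (4.55) and NEFM (10.9) were near 0. LHX1 (0.35 ± 0.12), NR2F1 (0.29 ± 0.06) and INA were higher, and PAX2 (-0.35 ± 0.18) and SOX4 (-0.31 ± 0.06) were lower in the authors' deposited table.

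HOX genes, which pattern the body axis, had 10 of 38 (26.3%) higher and 1 lower. HOXC12 had the largest rise (2.00 ± 0.41, level 91.9), followed by HOXD1 (0.50 ± 0.30), HOXD8 (0.42 ± 0.09), HOXD12 (0.42 ± 0.47), HOXC5 (0.29 ± 0.11) and HOXA9 (0.28 ± 0.05) in the authors' deposited table. HOXA13 fell (-0.27 ± 0.07), and its cluster members HOXA10 (-0.04 ± 0.04) and HOXA11 (-0.01 ± 0.04) were not called there. Of 50 clustered protocadherins, PCDHB5 rose (2.32 ± 0.86, level 11.5) and PCDHGC5 fell (-0.20 ± 0.10). Of 16 tested imprinted genes, 2 rose, MEST (0.22 ± 0.12) and BLCAP (0.12 ± 0.05), and 3 fell, MKRN3 (-0.19 ± 0.07), PEG10 (-0.13 ± 0.05) and KCNK9, in the authors' deposited table.

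Interferon-stimulated genes were called in part, 9 of 31 (29.0%) higher and 1 lower. The list has 35 genes in the table, and members near 0 in untreated cells could reach the test only through a rise. IRF7, the transcription factor that amplifies interferon production (2.76 ± 0.53, level 22.5), OAS3, a sensor of double-stranded RNA (0.60 ± 0.11), BST2, which tethers virions (0.58 ± 0.24), IFI27 (0.65 ± 0.25), STAT2 (0.24 ± 0.06), and DDX58, the RNA sensor RIG-I (0.23 ± 0.08), were higher in the authors' deposited table. Several usual markers of an interferon response were not called there: IFIT1 stood at -0.02 ± 0.07, ISG15 at 0.07 ± 0.11 and MX1 at -0.02 ± 0.09. SAMD9 fell (-0.17 ± 0.08), and the median over the list was 0.03.

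NF-kB and cytokine genes had 6 of 20 higher and 1 lower, with LIF, a cytokine (0.83 ± 0.18), the subunit NFKB2 (0.41 ± 0.09), the inhibitor NFKBIA (0.28 ± 0.07) and TNFAIP2 (0.74 ± 0.30) higher and SOD2 lower (-0.17 ± 0.04) in the authors' deposited table. Immediate early genes split, 7 higher and 3 lower of 30. CTGF (1.18 ± 0.25), CYR61 (0.28 ± 0.14), FOS (0.64 ± 0.21) and FOSL1 (0.44 ± 0.25) rose, and MYC (-0.51 ± 0.15, level 8147), JUN (-0.41 ± 0.08, level 5384) and IER2 (-0.20 ± 0.11) fell in the authors' deposited table. FOS and JUN, partners in the AP-1 transcription factor, were thus called in opposite directions.

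Of the metabolic, stress and housekeeping lists, the highest share of rises was 17.2%, in the integrated stress response. Of its 29 genes, 5 rose, among them NUPR1 (1.07 ± 0.33) and ATF5 (0.37 ± 0.09), and 3 fell, GARS (-0.15 ± 0.04), AARS (-0.11 ± 0.04) and PSAT1 (-0.18 ± 0.06), in the authors' deposited table. Cholesterol synthesis had 3 higher and 4 lower of 24, with HMGCS1, an early enzyme of the pathway, at -0.38 ± 0.08 and TM7SF2, a late one, at 0.43 ± 0.07 in the authors' deposited table. Cytosolic ribosomal proteins had 0 higher and 5 lower of 72, from -0.14 to -0.09, and after centring 1 lower. Mitochondrial ribosomal proteins had 1 higher and 5 lower of 39, MRPS34 lowest (-0.25 ± 0.05), and oxidative phosphorylation subunits 2 higher and 2 lower of 38. Of 21 housekeeping genes, 3 rose and 5 fell, HPRT1 furthest (-0.28 ± 0.05) in the authors' deposited table.

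The other Aza experiments show how far the parental line's response recurred in separate libraries. In HEK293_TET_WT 14.3% of 16523 genes were called (7.17% higher, 7.14% lower), in G16 23.6% of 16744 (11.6% higher, with 2007 lower) and in G37 24.7% of 16744 (12.1% and 12.6%). All 12 of the largest rises at a level of at least 100 were called higher in each of the 3, with median deposited log2 fold changes of 1.21, 1.04 and 0.97 in HEK293_TET_WT, G16 and G37. All 8 of the largest rises at lower levels were also called higher in each. The level by which these 8 were chosen is a mean that includes the Aza libraries of G16 and G37. A gene almost silent without Aza can reach that level only through its rise, in those lines as well. Its recurrence in G16 and G37 is thus partly fixed by the choice and is a description. The libraries of HEK293_TET_WT are not part of that level. The 12 largest falls were called lower 6 times in HEK293_TET_WT and 11 times in each of G16 and G37, RPRML being the exception in G16 and HCN4 in G37. Of the 8 falls at lower levels, 1 was called lower in HEK293_TET_WT, 4 in G16 and 5 in G37.

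**Figure D3:**
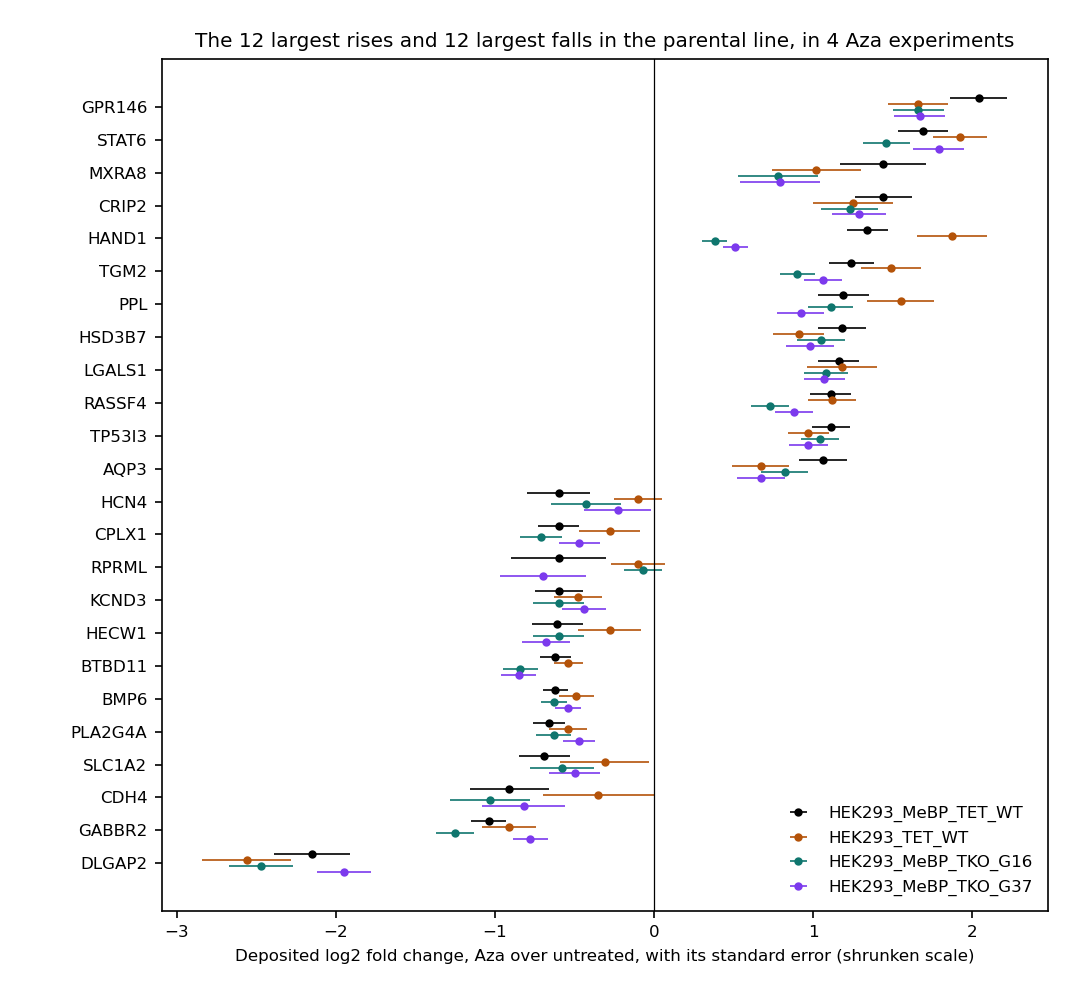
Deposited log2 fold change of Aza over untreated cells (3 libraries each), with its standard error, for the 12 largest rises and 12 largest falls of the parental line (black) and the same genes in HEK293_TET_WT, G16 and G37. HAND1 at 1.34 in the parental line stands apart from 0.38 in G16 and 0.51 in G37.

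Over all genes tested in both, 847 were higher in the parental line and in HEK293_TET_WT, which is 51.6% of the parental line's rises and 73.9% of the other's. Genes lower in both numbered 852, or 42.3% of the parental line's falls and 72.5% of the other's. With G16 the shared rises were 1101 (66.8% and 58.8%) and the shared falls 1259 (62.4% and 62.7%), and with G37 1148 (69.7% and 58.9%) and 1325 (65.6% and 62.7%). No gene was called in opposite directions between the parental line and HEK293_TET_WT or G37, and 3 were with G16, all lower in the parental line and higher in G16. Across genes of level 100 and over, unshrunken fold changes correlated with Pearson's r of 0.83 with HEK293_TET_WT (12228 genes), 0.84 with G16 and 0.85 with G37 (12594 each). These are correlations across genes, which are not independent replicates, and G16 and G37 share an experiment with the parental line.

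The difference between effects was tested directly for each gene, on fold changes from which the shrinkage had been removed, with p-values adjusted by Benjamini-Hochberg over all genes. Of 15792 genes 0 (0%) differed between the parental line and HEK293_TET_WT by this z test, while deposited shrunken values gave 1. An unadjusted p below 0.05 was found for 365 of them (2.31%), and for 5.79% of genes with G16 and 3.69% with G37. The shares with HEK293_TET_WT and with G37 are below what that threshold gives under equal effects and exact standard errors. The test was thus cautious for both. A count of 0 with HEK293_TET_WT, or of 1 with G37, does not show equal effects. With G16, 7 of 15915 (0.0440%) differed, 1 higher in the parental line (0.00628%) and 6 lower (0.0377%), and with G37, 1 of 15808 (0.00633%). HAND1 was the gene that differed from both: its unshrunken log2 fold change was 1.36 ± 0.13 in the parental line, against 0.41 ± 0.08 in G16 and 0.53 ± 0.08 in G37. The differences were 0.95 ± 0.15 (adjusted p = 6.2e-06) and 0.83 ± 0.15 (adjusted p = 9.4e-04) by the z test across all genes. Both rest on the same parental libraries, so they are not independent tests. An effect is a ratio to the untreated libraries of the same line, and no level is given by group. Whether the lines differed in the untreated level or in the level with Aza was thus not tested, for HAND1 or any other gene. In HEK293_TET_WT the value of HAND1 was 1.92 ± 0.22, and the parental line's differed from it by -0.55 ± 0.25 (adjusted p = 1).

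TSPO, a protein of the outer mitochondrial membrane, rose less in the parental line, at an unshrunken 0.62 ± 0.19, than in G16, at 2.40 ± 0.30 (difference -1.79 ± 0.35, adjusted p = 0.0034). Its deposited value in G37 was 0.16, with an adjusted p of 0.12 in the authors' deposited table of that line. The other five differences with G16 were small, from -0.35 to -0.20, in MINOS1 of the mitochondrial inner membrane, LARP4, which binds poly(A) RNA, SPTSSA of sphingolipid synthesis, the xylosyltransferase GXYLT1 and the phosphatase PTP4A1. MINOS1 had -0.22 ± 0.04 in the parental line and 0.08 ± 0.04 in G16, and SPTSSA -0.17 ± 0.06 and 0.18 ± 0.05. These were unshrunken log2 fold changes.

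**Figure D4:**
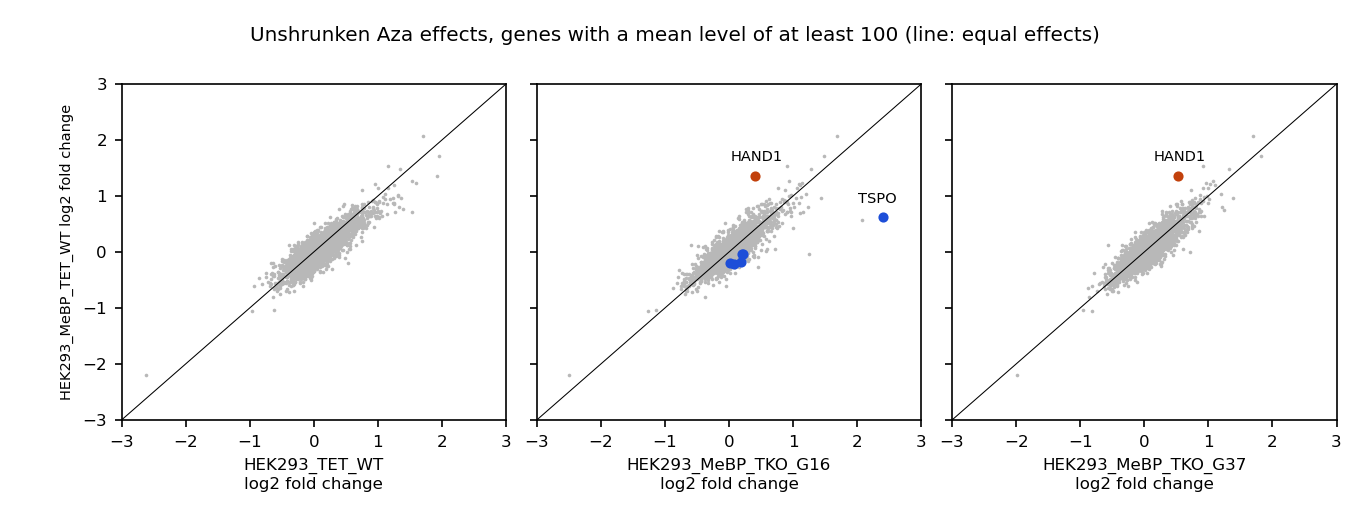
Unshrunken log2 fold change with Aza in the parental line (vertical axis) against that in HEK293_TET_WT, G16 and G37 (horizontal axes) for genes of level 100 and over, with the line of equal effects, genes that passed the test of the difference in colour. HAND1 lies above the line against G16 and G37, and no gene is coloured against HEK293_TET_WT.

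Of the 12 largest rises at a level of at least 100, HAND1 was the only one to pass that test against any of the 3 lines. At lower levels GTSF1, USH1C, ISLR, TDRD1 and CD93 gave no unshrunken value and were not tested. The deposited value of ISLR was 5.04 ± 0.72 in the parental line, against 4.60 ± 0.85 in HEK293_TET_WT, 2.65 ± 0.36 in G16 and 3.08 ± 0.40 in G37. GPR146 had an unshrunken 2.07 ± 0.17 in the parental line, against 1.70 ± 0.18 in HEK293_TET_WT (difference 0.37 ± 0.25, adjusted p = 1 by the z test across all genes). For STAT6 the parental line had 1.72 ± 0.16, against 1.95 ± 0.17 in HEK293_TET_WT, 1.49 ± 0.15 in G16 and 1.82 ± 0.16 in G37. MXRA8 had 1.53 ± 0.26, against 0.91 ± 0.23 in each of G16 and G37, and the differences of 0.63 ± 0.34 and 0.62 ± 0.34 did not pass. DLGAP2, the largest fall, had -2.20 ± 0.24, against -2.62 ± 0.27 in HEK293_TET_WT, -2.50 ± 0.19 in G16 and -1.98 ± 0.17 in G37. The standard errors leave room for differences of that order, so that equal effects are not shown.

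Nascent RNA, measured by PRO-seq as engaged polymerase in HEK293_TET_WT with and without Aza, gave a readout in other libraries of genes chosen from the parental line. Of its 3697 genes, 14.8% were called in that deposited PRO-seq table, 7.55% higher and 7.22% lower. The parental line's rises included 369 genes with a PRO-seq value, of which 106 (28.7%) were called higher and 18 (4.88%) lower in PRO-seq. Its falls included 427, of which 49 (11.5%) were called lower and 10 (2.34%) higher. Genes not called in the parental line had 6.23% higher and 7.29% lower of 2360. The median PRO-seq log2 fold change was 0.20 among the rises and -0.05 among the falls, beside 0.01 among genes not called.

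Single genes show the range. TGM2 had a PRO-seq log2 fold change of 1.27 ± 0.23 (adjusted p = 2.3e-06) and HAND1 of 0.83 ± 0.21 (adjusted p = 0.0013) in the authors' deposited PRO-seq table. FOS stood at 1.44 ± 0.13, MAP2 at 0.44 ± 0.11 and SOX4, lower in the parental line, at -0.36 ± 0.06, all called in that deposited table. CRIP2 (-0.09 ± 0.28), MXRA8 (0.49 ± 0.29) and AQP3 (0.38 ± 0.45), of the 12 largest rises in total RNA, were not called in PRO-seq. Of the same 12, GPR146, STAT6, PPL, HSD3B7, LGALS1, TP53I3 and RASSF4 had no PRO-seq value. ATP5D was higher in total RNA (0.29 ± 0.08) and lower in PRO-seq (-0.39 ± 0.13, adjusted p = 0.028) in the deposited tables.

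The length of the gene region counted in PRO-seq is given for 3156 of the genes tested in the parental line (19.3%), too few to stand for the table, and is reported for those genes alone. In the shortest of 4 equal classes, 0.401 to 8.09 kb, 15.6% were higher and 7.60% lower. The second class had 14.8% and 9.13%, and the third 10.5% and 15.1%. In the longest, 42.4 to 622 kb, 5.83% were higher and 22.3% lower. At a level of at least 100 the shares went the same way, 16% higher and 10.4% lower in the shortest class and 4.93% and 25.4% in the longest.

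**Figure D5:**
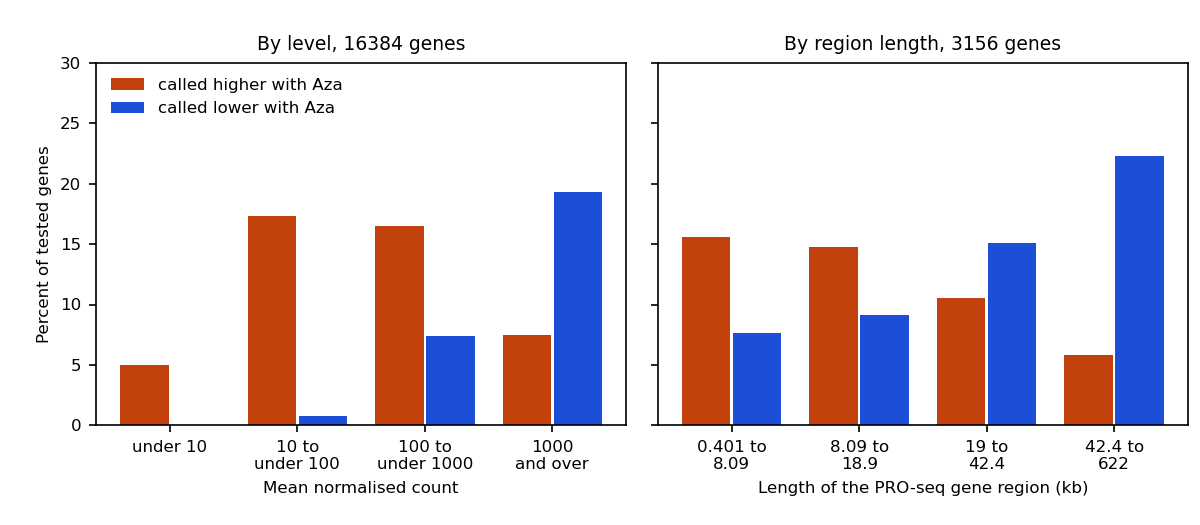
Percent of tested genes called higher (orange) and lower (blue) with Aza in the parental line, by mean normalised count (left) and, for the 3156 genes with a PRO-seq gene region, in 4 equal classes of its length in kilobases (right). Called falls make up 0.801% at levels of 10 to under 100 and 19.3% at 1000 and over, where smaller changes were called. They make up 7.60% and 22.3% in the shortest and longest class.

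Dox in the parental line shares its 3 untreated libraries with the Aza comparison, so values are set side by side and no shared response is read from them. The 2 tables are also not on 1 scale: shrinkage was stronger with Dox, with a fitted prior scale of 0.043 against 0.143 with Aza, so a change that was not called with Dox was pressed close to 0. With Dox, 1.30% of 15306 genes were called in the authors' deposited table of that comparison, 159 higher (1.04%) and 40 lower (0.261%). Among the 12 largest Aza rises, deposited values with Dox were 0.63 ± 0.20 for GPR146 (adjusted p = 0.011), 0.71 ± 0.18 for STAT6 (8.5e-04), 1.60 ± 0.26 for MXRA8 (9.7e-08), 0.59 ± 0.15 for HAND1 (7.7e-04), 0.40 ± 0.16 for TGM2 (0.04) and 0.58 ± 0.14 for RASSF4 (7.2e-04). CRIP2, PPL, HSD3B7, TP53I3 and AQP3, at 0.01 or 0.02, and LGALS1, at 0.28, were not called with Dox. The 12 largest Aza falls had values from -0.03 to 0.00 with Dox in the authors' deposited table, on that strongly shrunken scale. Of p53 targets 0 of 34 were called with Dox, and of the G2 and M phase list 0 of 30. IRF7 had 2.76 with Aza and 1.82 with Dox in the deposited tables.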

How the data were processed

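Total RNA of HEK293 T-Rex Flp-in cells was depleted of ribosomal RNA and sequenced with a stranded kit, per the labels' protocols. The submitters' processing notes name STAR 2.4.2, deepTools 3.0.2, R 3.5.1, DESeq2 1.22.1 and hg19, without roles. As signal, the authors deposited 1 mean normalized count for each gene, taken over an experiment's libraries and identical in the parental, G16, G37 and Dox tables. Fold changes on the log2 scale and their standard errors were deposited shrunken toward 0, as the values show. Raw and adjusted p-values were deposited, with adjusted ones left blank for filtered genes: 241 rows had level 0 and 2164 a p without an adjusted p, at levels up to 1.34. The score column that the authors deposited for PRO-seq was not used here. No table holds values per library, so nothing could be refitted and no precision from depth is given. Of the 37 deposited, 6 were used here.

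Repeated symbols were reduced to the copy with the highest level. Genes were called at a deposited adjusted p below 0.05. Shrinkage was undone under a Cauchy prior whose scale (0.143 in the parental table) was fitted to the p-values, and a gene was kept where the recovered z lay within 0.3 of that of its p-value. Differences between lines were tested by z, two-sided, adjusted by Benjamini-Hochberg over all genes, on the assumption that effects in separate libraries are independent. The code was tested on simulated data. Named genes were the 12 largest changes of each direction at a level of at least 100 and the 8 largest at 10 to under 100, leaving out clone names, with 13 methylation genes, up to 5 called members per list and up to 5 genes per difference and direction. UHRF1 was not analysed here, and some list members are not reported here. Further list members were chosen after their values were seen. Members, lists and tests were chosen with earlier results of these data known. Promoter windows matched 78.0% of tested genes, under 80%, so a check of CpG content over called genes is void. Python 3.11.15, pandas 2.3.3, scipy 1.17.1 and statsmodels 0.14.6 were used.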

Additional observations from a re-analysis of the deposited data

Results flagged for a closer look

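The effect of Aza differed between the parental line and a knockout line in 8 cases by the z test of the difference across all genes, adjusted by Benjamini-Hochberg. Each effect is a ratio to the untreated libraries of its own line, with no level given by group. A different untreated level and a different level with Aza thus cannot be told apart in these cases. HAND1 had the larger effect in the parental line, by 0.95 against G16 and by 0.83 against G37 (unshrunken log2), both from the same parental libraries. Against G16 the effect in the parental line was lower for TSPO by a difference of -1.79 (adjusted p = 0.0034), for SPTSSA by -0.35 (adjusted p = 0.022), for MINOS1 by -0.31 (adjusted p = 0.0053), for GXYLT1 by -0.25 (adjusted p = 0.029), for PTP4A1 by -0.22 (adjusted p = 0.041) and for LARP4 by -0.20 (adjusted p = 0.022). The 6 libraries of the parental line carry the TETMut-CD-GFP tag and those of G16 and G37 the TET-CD-GFP tag, so that the knockout and the tagged construct cannot be told apart in these differences. HEK293_TET_WT, tagged TET-CD-GFP without the TKO tag, had a HAND1 effect of 1.92 ± 0.22.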

How the results depend on the processing

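At an adjusted p below 0.01 the calls in the parental line were 2347, of which 1088 higher and 1259 lower, and at below 0.1 they were 4768. Under the other alternatives (adjustment over every row with a p-value, a minimum level of 100, centring, no repeated symbols) they ran from 3420 to 3712. From deposited shrunken values, 1 gene differed from HEK293_TET_WT (C12orf68), 4 from G16 and 4 from G37 (HAND1, PVRL3, DLX3 and HIST1H1A). With those values SPTSSA (adjusted p = 0.091), GXYLT1 (0.057) and PTP4A1 (0.057) no longer differed from G16, and after centring GXYLT1 (0.051) and PTP4A1 (0.076) did not, while PIEZO1 did, which gave 6 genes, with 2 higher in the parental line. HAND1 and TSPO passed under all alternatives run. Centring left the call of 159 of 169 named genes in place, and 10 were no longer called, each with the same direction. It moved 10 of 50 list counts by over 1.5 times. No paired analysis was possible because the tables hold no value per library. For the same reason leaving out a replicate, edgeR and pydeseq2 were not run, and the void check of CpG content gave no value. Low levels limit what can be called: 27 of the rises above 1 lay under a level of 10.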
